A study of Mus musculus with 12 samples.

Results

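The genes described here are the 3 chain genes of complement C1q (C1qa, C1qb, C1qc) and 7 genes commonly used as markers of tumor macrophages (Mrc1, Trem2, Apoe, Spp1, Cd68, Adgre1, Gpnmb), 10 of the 24346 gene symbols listed in each library. They were selected from the whole transcriptome by symbol, with earlier results of these data in view: C1qb had been noted for its low level in MS-275-treated M-MDSCs. RNA-seq was performed on myeloid-derived suppressor cells (MDSCs) sorted from Hepa 1-6 tumors, a mouse hepatoma grown in the liver of wild-type C57BL/6 J mice. M-MDSCs are the monocytic subset and PMN-MDSCs the polymorphonuclear subset. Each was collected from mice treated with vehicle, MS-275 or CXD101, which gave 6 groups of 2 libraries.

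Both inhibitors target the class I histone deacetylases HDAC1-3. In the M-MDSC experiment they were given at 5 mg/kg daily for 10 days to mice that were 6 to 8 weeks old, and tumors were taken on day 21; only mice with a high blood MDSC fraction entered the treatment. The dosing of the mice behind the PMN-MDSC libraries is not given in the sources used here. The labels do not say whether replicate libraries came from separate mice or from pools, so the spread between them may be partly technical. All values are FPKM, fragments scaled to transcript length and to library size, which can be compared between genes because they are scaled to length. The sorted subsets were checked by their markers: the neutrophil genes S100a8 and S100a9 together took 1.78% to 4.28% of the summed FPKM in M-MDSCs and 10.2% to 30.9% in PMN-MDSCs. Ly6c2, a monocyte marker, was at 1306 to 2447 FPKM in M-MDSCs and at 455 to 1677 in PMN-MDSCs, so that its ranges overlapped. The macrophage gene Csf1r was at 160 and 145 FPKM in vehicle PMN-MDSCs and at 123 in both vehicle M-MDSC libraries.

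C1q is the recognition molecule of the classical complement pathway. It is assembled from A, B and C chains, and macrophages, rather than hepatocytes, are its main source in many tissues. Tumor macrophages that express C1q often also express TREM2, a lipid-sensing receptor, and MRC1 (CD206), the mannose receptor. APOE carries lipids, SPP1 (osteopontin) is a secreted phosphoprotein, CD68 is a glycoprotein of lysosomes, ADGRE1 (F4/80) is the classical mouse macrophage surface antigen, and GPNMB is a transmembrane glycoprotein of the lysosomal and melanosomal compartment.

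C1qb, C1qc and C1qa lie next to each other on the minus strand of mouse chromosome 4 in GRCm38, the build that GENCODE and the submitters' processing notes (mm10) share. C1qb spans chr4:136880129-136886187, C1qc spans chr4:136889804-136893065 and C1qa spans chr4:136895917-136898803, all of them protein-coding. Gaps of 3616 and 2851 bases separate them, and the cluster spans 18675 bases. Mrc1 overlaps the microRNA gene Mir511 and Spp1 overlaps Gm42793, and the sources used here do not say how reads in an overlap were assigned.

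The sequences upstream of C1qb, C1qc and Mrc1 are printed because these genes showed the largest differences of the set under MS-275 in M-MDSCs, and that of Gpnmb because it differed most between the cell types. They come from RefSeq (GRCm38.p6), run 5′ to 3′ on the gene's strand and end before the outermost annotated start of the gene, so that the stretch of C1qc has 99 bases and that of Mrc1 has 228 bases. Capitals mark matches, on either strand, to GAGGAA (the core bound by the myeloid factor PU.1), CATGTG (the M-box of the MITF family), TGANTCA (AP-1), TGCTGAC (a Maf half-site) or CACGTG (the E-box). The capitals of Mrc1 hold adjoining matches to CATGTG and GAGGAA.
C1qb, chr4:136886201-136886450, minus strand: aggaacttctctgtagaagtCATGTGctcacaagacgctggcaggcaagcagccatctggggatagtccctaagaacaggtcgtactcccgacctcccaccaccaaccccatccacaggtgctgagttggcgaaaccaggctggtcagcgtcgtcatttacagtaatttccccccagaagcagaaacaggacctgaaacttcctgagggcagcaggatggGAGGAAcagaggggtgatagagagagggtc
C1qc, chr4:136893066-136893164, minus strand: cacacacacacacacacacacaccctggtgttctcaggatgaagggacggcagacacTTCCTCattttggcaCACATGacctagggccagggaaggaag
Mrc1, chr2:14229164-14229391, plus strand: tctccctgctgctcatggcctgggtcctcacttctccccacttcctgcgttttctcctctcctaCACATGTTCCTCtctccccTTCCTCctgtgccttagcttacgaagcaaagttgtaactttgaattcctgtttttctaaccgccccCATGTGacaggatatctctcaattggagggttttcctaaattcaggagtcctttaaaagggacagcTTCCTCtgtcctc
Gpnmb, chr6:49036268-49036517, plus strand: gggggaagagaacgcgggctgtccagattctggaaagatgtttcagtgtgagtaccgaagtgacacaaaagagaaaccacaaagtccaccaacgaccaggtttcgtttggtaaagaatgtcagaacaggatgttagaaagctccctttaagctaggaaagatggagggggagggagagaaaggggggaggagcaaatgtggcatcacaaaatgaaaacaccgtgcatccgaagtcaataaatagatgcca
C1qb, C1qc and Mrc1 each held GAGGAA and CATGTG in the 250 bases before the RefSeq start site. These letters occur in 23.3% and 12.3% of the same windows of 32851 mouse promoters. Of the 8 genes of the set with an entry, 7 held GAGGAA, and TGANTCA was found in Trem2 and Cd68. TGANTCA occurs in 6.75%, TGCTGAC in 3.81% and CACGTG in 6.02% of all windows, and neither of the last pair was found in the set. None of the 5 patterns matched the Gpnmb window. A match describes letters in a window, not a bound site.

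The C1q genes were expressed at low to moderate levels in tumor MDSCs of vehicle-treated mice and were near the detection limit after MS-275. C1qb, the B chain, was at 15.5 and 14.0 FPKM in vehicle M-MDSCs, at 0.501 and 0.760 in the MS-275 group and at 4.63 and 3.59 in the CXD101 group. In PMN-MDSCs it was at 23.7 and 18.8 FPKM with vehicle, at 0.608 and 0.288 with MS-275 and at 3.93 and 1.79 with CXD101. The 3 treatments did not overlap within either cell type, and the order was vehicle, CXD101, MS-275 in both.

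C1qc, the C chain, followed the same order. Its values in M-MDSCs were 5.48 and 5.01 FPKM with vehicle, 0.506 and 1.02 with MS-275 and 1.71 and 1.33 with CXD101. In PMN-MDSCs they were 10.4 and 9.77 with vehicle, 0.153 and 0.437 with MS-275 and 1.64 and 1.96 with CXD101. C1qa, the A chain, was the lowest of the 3, at 1.51 and 1.02 FPKM in vehicle M-MDSCs and 3.96 and 1.84 in vehicle PMN-MDSCs. With CXD101 it was at 0.110 and 0.468 FPKM in M-MDSCs and at 0.928 and 0.437 in PMN-MDSCs. With MS-275 it was at 0.0980 and 0.149 in the first library of each cell type and was listed at 0 in the second. C1qa thus passed the filter on low values only through the vehicle groups, so that it had to be lower in the others, and no fold, test or call against vehicle is given for it.

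**Figure D1:**
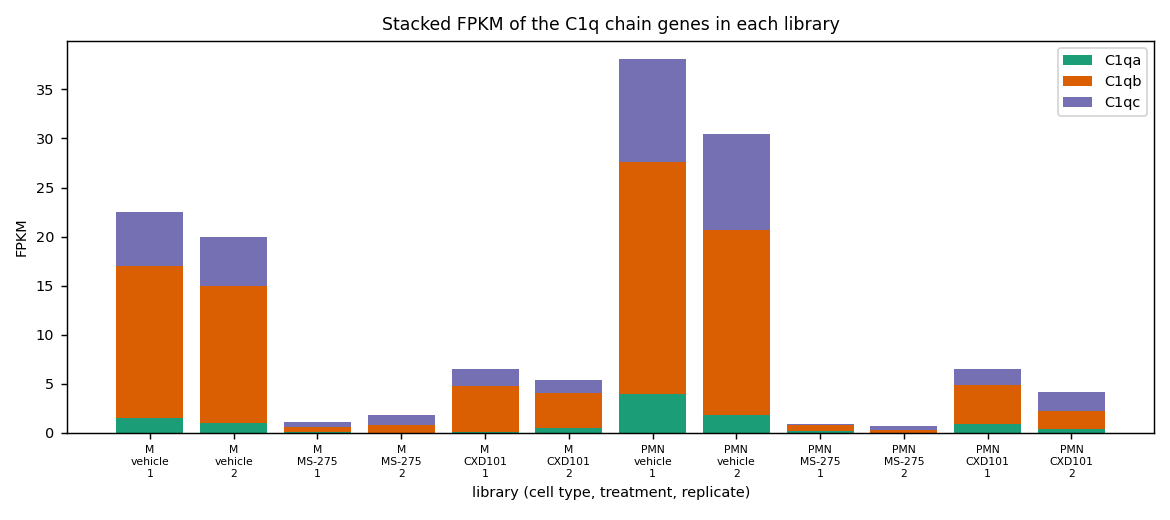
Stacked FPKM of C1qa, C1qb and C1qc (y axis) in each of the 12 libraries (x axis, cell type, treatment and replicate). The sum was 22.5 and 20.0 FPKM in vehicle M-MDSCs and 38.1 and 30.4 in vehicle PMN-MDSCs, and no MS-275 library exceeded 1.78.

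The summed C1q level was 22.5 and 20.0 FPKM in vehicle M-MDSCs, 6.45 and 5.38 with CXD101, and 1.11 and 1.78 with MS-275. In PMN-MDSCs it was 38.1 and 30.4 with vehicle, 6.51 and 4.19 with CXD101, and 0.910 and 0.725 with MS-275. C1qb made up 66.6% to 71.8% of the sum in the vehicle and CXD101 libraries of M-MDSCs and 42.8% to 62.2% in those of PMN-MDSCs. The files hold FPKM and no read counts. The depth estimated from the steps between low values was about 6980000 to 10550000 reads per library, and 1 read in C1qb corresponds to about 0.112 FPKM. C1q values of the MS-275 groups therefore rest on a few reads per library, and fitted differences on the log2(FPKM + 1) scale understate their change.

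Mrc1 differed between the inhibitors in both cell types. In M-MDSCs it was at 79.9 and 81.3 FPKM with vehicle, at 16.4 and 13.5 with MS-275 and at 65.0 and 77.4 with CXD101. The mean of the MS-275 group was 18.6% of vehicle and that of the CXD101 group 88.4%. The PMN-MDSC libraries were at 50.6 and 48.0 FPKM with vehicle, at 3.32 and 2.96 with MS-275 and at 20.1 and 23.7 with CXD101. There the CXD101 group stood between the other groups, at 44.4% of vehicle, and the MS-275 group was at 6.37% of it.

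Trem2 was at 46.0 and 47.6 FPKM in vehicle M-MDSCs, at 27.4 and 25.0 with MS-275 and at 32.9 and 33.3 with CXD101. PMN-MDSCs had values of 54.9 and 46.0 with vehicle, 10.6 and 12 with MS-275 and 20.3 and 18.6 with CXD101. Vehicle libraries of the 2 cell types overlapped, whereas the treated PMN-MDSC libraries were all below the treated M-MDSC libraries.

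Spp1 was among the most abundant genes of the set and stood at a similar level with both inhibitors. It was at 289 and 298 FPKM in vehicle M-MDSCs, at 85.3 and 95.6 with MS-275 and at 76.6 and 78.4 with CXD101. In PMN-MDSCs the values were 206 and 212 with vehicle, 86.3 and 82.5 with MS-275 and 71.7 and 87.0 with CXD101. All 8 treated libraries thus lay between 71.7 and 95.6 FPKM.

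Cd68 was high in every library. It was at 321 and 339 FPKM in vehicle M-MDSCs, at 253 and 231 with MS-275 and at 298 and 288 with CXD101. In PMN-MDSCs it was at 537 and 484 with vehicle, at 269 and 285 with MS-275 and at 328 and 301 with CXD101. In both cell types the treated libraries were below the vehicle libraries, by a smaller factor than for C1q or Spp1.

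Apoe was higher with the inhibitors than with vehicle in both cell types. It was at 3.46 and 3.78 FPKM in vehicle M-MDSCs, at 5.36 and 6.04 with MS-275 and at 5.12 and 6.08 with CXD101. The PMN-MDSC libraries were at 13.8 and 16.4 with vehicle, at 45.2 and 51.1 with MS-275 and at 18.6 and 25.5 with CXD101. All treated libraries were above the vehicle libraries of their cell type, and the MS-275 group of PMN-MDSCs stood highest.

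Adgre1 was at 38.9 and 41.5 FPKM in vehicle M-MDSCs, at 58.4 and 53.9 with MS-275 and at 42.3 and 47.6 with CXD101. The values of PMN-MDSCs were 88.4 and 86.6 with vehicle, 78.6 and 88.0 with MS-275 and 65.4 and 70.1 with CXD101. The treated M-MDSC libraries were thus above the vehicle libraries in F4/80 transcript, by a small margin with CXD101. In PMN-MDSCs the CXD101 libraries were the lowest.

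Gpnmb was higher with the inhibitors than with vehicle in M-MDSCs and lower in PMN-MDSCs. In M-MDSCs it was at 126 and 117 FPKM with vehicle, at 152.0 and 151.9 with MS-275 and at 137 and 131 with CXD101. In PMN-MDSCs it was at 568 and 452 with vehicle, at 72.9 and 83.6 with MS-275 and at 120 and 95.6 with CXD101. The vehicle PMN-MDSC group stood apart from the other 5 groups, and the MS-275 libraries of PMN-MDSCs were the lowest.

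**Figure D2:**
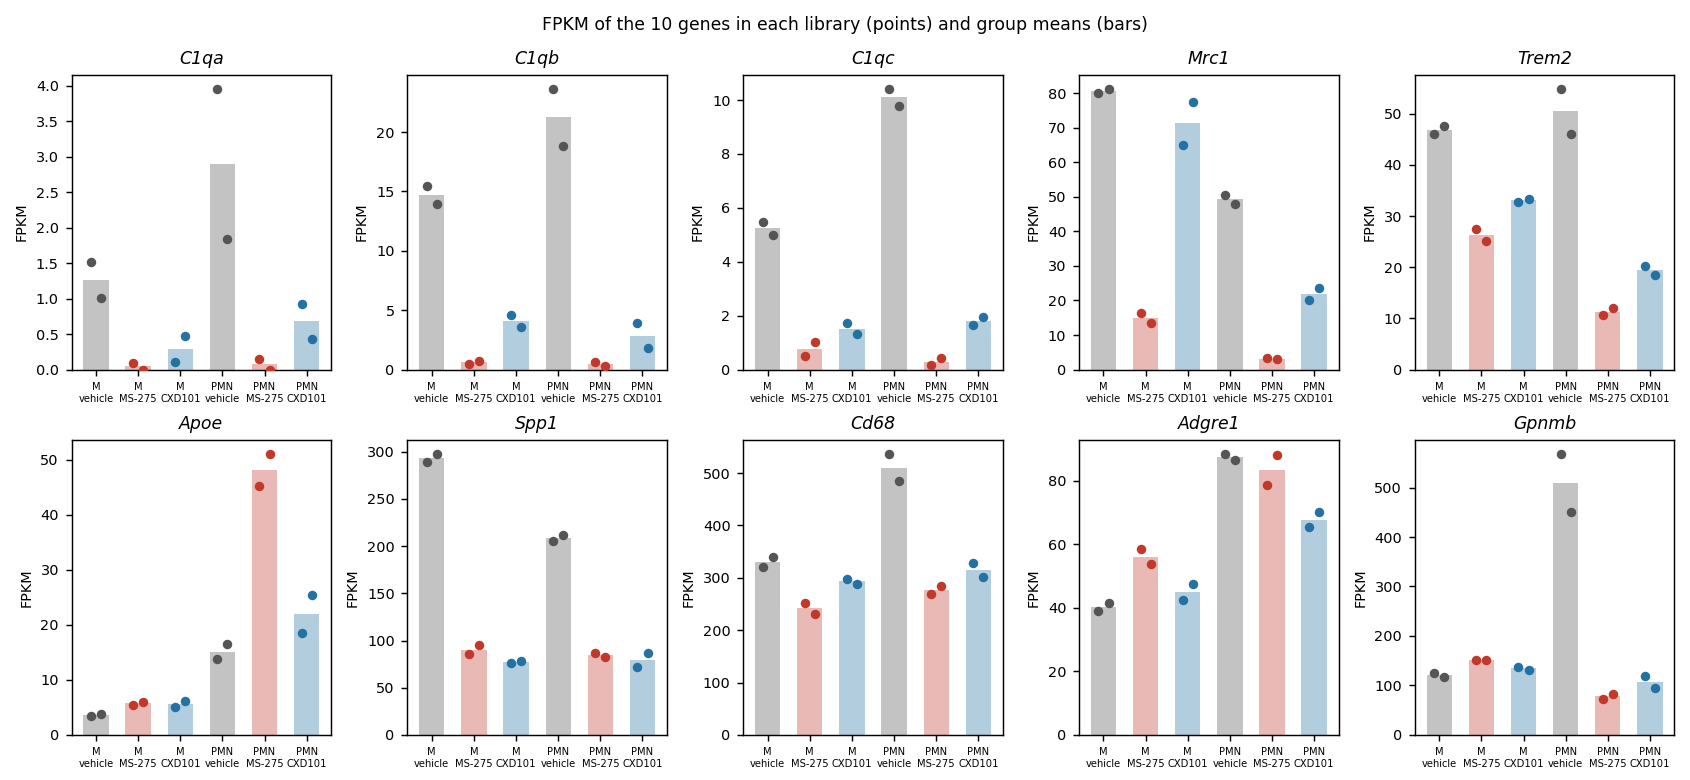
FPKM (y axis, linear and starting at 0) of each of the 10 genes in the 6 groups (x axis), with points for the 2 libraries and bars for their mean. C1qb in M-MDSCs is at 15.5 and 14.0 with vehicle and at 0.501 and 0.760 with MS-275, all treated Spp1 libraries lie between 71.7 and 95.6, and Gpnmb is highest in vehicle PMN-MDSCs, at 568 and 452.

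Differences were estimated as log2(FPKM + 1) with limma, over genes with at least 1 FPKM in at least 2 libraries, and calls required a fold change above 1.5 together with an adjusted p-value (Benjamini-Hochberg) under 0.05. In M-MDSCs, values are given without p-values, because the genes were chosen with this comparison known. The difference from vehicle under MS-275 was −3.27 ± 0.14 (log2, SE) for C1qb, −2.36 ± 0.11 for Mrc1, −1.84 ± 0.17 for C1qc and −1.69 ± 0.07 for Spp1. Trem2 (−0.81 ± 0.07) was also past both limits, whereas Cd68 (−0.45 ± 0.06) was below the fold limit. Apoe, Adgre1 and Gpnmb were higher by 0.54 ± 0.12, 0.47 ± 0.08 and 0.32 ± 0.06. On this scale none of them reached the fold limit. In plain FPKM, the Apoe mean of the MS-275 group was 158% of vehicle. Of the 9 genes without C1qa, 5 were thus past both limits in the lower direction, where 7.32% of the 11078 genes tested were, and 0 in the higher direction, where 10.1% were.

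Under CXD101 in M-MDSCs, Spp1 differed most from vehicle, by −1.91 ± 0.07 (log2, SE). C1qb differed by −1.63 ± 0.14 and C1qc by −1.31 ± 0.17. These 3 of the 9 genes without C1qa were past both limits in the lower direction, where 3.0% of all genes tested were, and 0 in the higher direction, where 5.14% were. Mrc1 differed by −0.18 ± 0.11 and Trem2 by −0.49 ± 0.07. The comparisons of both inhibitors share the vehicle libraries. Nothing is read from these counts, since the choice of genes used the M-MDSC data.

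The result known for a gene of the set when it was chosen came from M-MDSCs, and each gene other than C1qa was tested in PMN-MDSCs. Under MS-275, 7 of these 9 genes fell and 1 rose, where 14.2% and 14.6% of the 11184 genes tested were called lower and higher. C1qb fell by 3.94 ± 0.27 on the log2 scale (limma adjusted p = 2.44e-05), Mrc1 fell by 3.60 ± 0.11 (adjusted p = 9.04e-07) and C1qc fell by 3.11 ± 0.16 (adjusted p = 7.30e-06). Gpnmb fell by 2.68 ± 0.14 (adjusted p = 7.65e-06), and Trem2 fell by 2.06 ± 0.11 (adjusted p = 8.61e-06). Spp1 and Cd68 fell by 1.30 ± 0.09 and 0.88 ± 0.08, with adjusted p-values of 3.03e-05 and 7.06e-05. Apoe rose by 1.61 ± 0.15 (adjusted p = 0.000106), with both libraries above both vehicle libraries. Adgre1 differed by −0.07 ± 0.08 (adjusted p = 0.448), with a 95% interval from −0.25 to 0.10.

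Under CXD101 in PMN-MDSCs the same 7 genes fell and 0 rose, where 9.54% and 11.9% of all genes tested were called lower and higher. C1qb fell by 2.58 ± 0.27 (adjusted p = 0.000262), Gpnmb by 2.23 ± 0.14 (adjusted p = 2.73e-05) and C1qc by 1.99 ± 0.16 (adjusted p = 8.36e-05). Spp1, Trem2 and Mrc1 fell by 1.39 ± 0.09, 1.33 ± 0.11 and 1.14 ± 0.11. Cd68 fell by 0.69 ± 0.08 (adjusted p = 0.000329). Apoe differed by 0.50 ± 0.15 (adjusted p = 0.0292) and Adgre1 by −0.37 ± 0.08 (adjusted p = 0.00631), both below the fold limit.

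**Figure D3:**
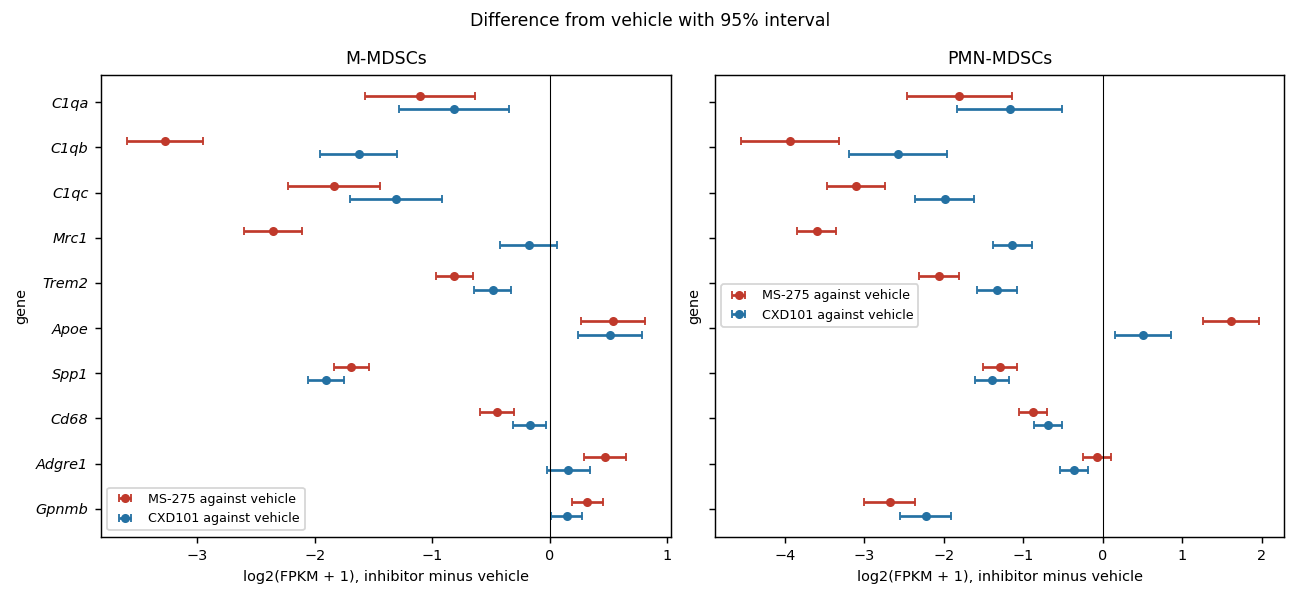
Difference from vehicle on the log2(FPKM + 1) scale (x axis) for each gene (y axis) under MS-275 and CXD101, in M-MDSCs (left) and PMN-MDSCs (right), with 95% intervals from limma. C1q, Spp1 and Trem2 lie below 0 in all 4 comparisons, Apoe lies above 0, and Gpnmb lies above 0 in M-MDSCs and at −2.68 and −2.23 in PMN-MDSCs. C1qa is drawn as a description only, since it passed the filter through the vehicle groups.

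The inhibitors were compared directly at the same dose in M-MDSCs. Mrc1 was lower with MS-275 than with CXD101 by 2.18 (log2, −2.18 ± 0.11) and C1qb by 1.65 (−1.65 ± 0.14), and no other gene of the set was past both limits. That made 2 of 10 in the lower direction, where 1.17% of all genes tested were called, and 0 in the higher direction, where 3.22% were. Spp1 was slightly higher with MS-275, by 0.22, with a 95% interval from 0.07 to 0.37. The interval of Apoe, from −0.25 to 0.30, included 0, as did that of C1qa, from −0.75 to 0.18.

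In PMN-MDSCs, for which the doses are not given in the sources used here, the same comparison was tested, with 0.340% of all genes called lower and 0.465% called higher with MS-275. Mrc1 was lower with MS-275 by 2.47 (−2.47 ± 0.11, adjusted p = 0.000241), which held in 11 other settings and with each of the 6 libraries left out. C1qc (−1.12 ± 0.16, adjusted p = 0.0255) and Trem2 (−0.73 ± 0.11, adjusted p = 0.0305) were called lower and Apoe (1.11 ± 0.15, adjusted p = 0.0251) higher. All 3 calls were lost without the filter on low values (adjusted p = 0.0944 for C1qc and 0.10 for Trem2 and Apoe). They were also lost without either MS-275 library or the first CXD101 library, and without the second CXD101 library for C1qc and Trem2 (adjusted p from 0.0647 to 0.220). C1qb differed by −1.37 ± 0.27 (adjusted p = 0.0660), with a 95% interval from −1.98 to −0.75, and passed with the replicate number as a block (adjusted p = 0.0334) or with all 12 libraries in 1 model (adjusted p = 0.0162). Spp1 differed by 0.09 (adjusted p = 0.681), with an interval from −0.12 to 0.31, and the other 4 genes were not called either.

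**Figure D4:**
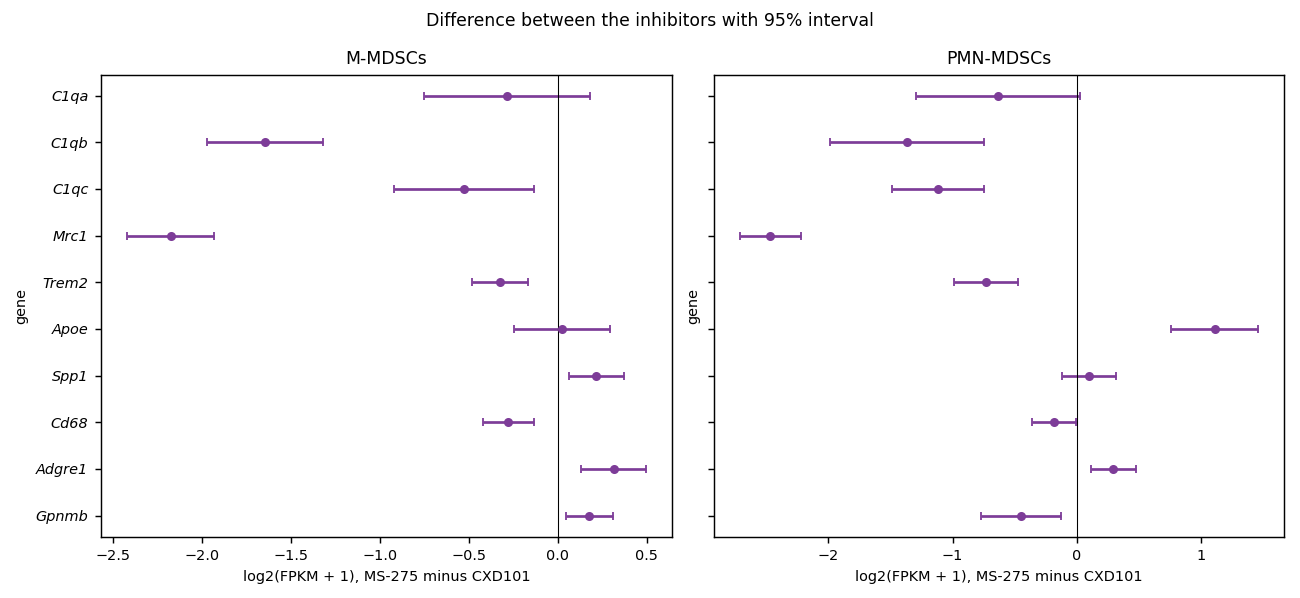
Difference between MS-275 and CXD101 on the log2(FPKM + 1) scale (x axis, MS-275 minus CXD101) for each gene (y axis) in M-MDSCs (left) and PMN-MDSCs (right), with 95% intervals from limma. Mrc1 lies farthest from 0 in both, at −2.18 and −2.47, whereas Spp1 lies at 0.22 and 0.09.

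The cell types were also compared. In vehicle mice, Gpnmb, Apoe and Adgre1 were lower in M-MDSCs than in PMN-MDSCs by 2.05, 1.80 and 1.10 on the log2 scale (−2.05 ± 0.12, −1.80 ± 0.15 and −1.10 ± 0.08), and Mrc1 was higher by 0.70 ± 0.11. In all, 7 of the 10 genes were past both limits, where 34.0% of 11662 genes tested were. This is a description, since it shares libraries with the comparison known beforehand. Between the CXD101 groups, whose M-MDSC libraries are not part of that comparison, Mrc1 (1.66 ± 0.11, adjusted p = 2.48e-07) and Trem2 (0.74 ± 0.09, adjusted p = 3.14e-05) were higher in M-MDSCs, where 24.5% of all genes were. Apoe was lower (−1.79 ± 0.15, adjusted p = 9.54e-07), where 24.4% of all genes were. Spp1 differed by −0.03 ± 0.09 (adjusted p = 0.786), and C1qb by 0.45 ± 0.24 (adjusted p = 0.108), which was called only without the first CXD101 library of PMN-MDSCs (0.87, adjusted p = 0.00383).

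The differences from vehicle were also set side by side between the cell types, as values without a test. For MS-275, the difference from vehicle in PMN-MDSCs minus that in M-MDSCs was −3.00 ± 0.17 for Gpnmb, −1.27 ± 0.24 for C1qc, −1.25 ± 0.13 for Trem2, −1.25 ± 0.16 for Mrc1 and 1.07 ± 0.21 for Apoe. These 5 were past both limits, where 18.1% of all genes were. For CXD101, Gpnmb (−2.37 ± 0.17), Mrc1 (−0.96 ± 0.16) and Trem2 (−0.84 ± 0.13) were past both limits, where 13.9% of all genes were. C1qb was not past them in either case, at −0.67 ± 0.34 and −0.95 ± 0.34.

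The order of the group means summarises each gene. C1qb was highest in vehicle PMN-MDSCs, followed by vehicle M-MDSCs, and then by the CXD101 groups, which overlapped, and the MS-275 groups, which overlapped too. For Mrc1 the order was vehicle and CXD101 M-MDSCs, vehicle and CXD101 PMN-MDSCs, then MS-275 M-MDSCs and MS-275 PMN-MDSCs. For Apoe the MS-275 group of PMN-MDSCs was the highest and vehicle M-MDSCs the lowest.

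The other listed genes of the classical and lectin pathways, with C1qbp, were mostly near 0, with 3 or 4 of 15 at 1 FPKM or more in each library. Of these, 4 were tested in M-MDSCs and 3 in PMN-MDSCs. Fcna, which encodes ficolin A, was at 1.37 and 1.34 FPKM in vehicle M-MDSCs, at 0.232 and 0 with MS-275 and at 0.436 and 0.461 with CXD101. Like C1qa, it passed the filter only through the vehicle group, and no test is given. C3, the central component, was at 258 and 241 FPKM in vehicle M-MDSCs and at 438 and 468 in vehicle PMN-MDSCs. It rose in PMN-MDSCs by 0.96 ± 0.06 under MS-275 (adjusted p = 1.68e-05) and by 0.67 ± 0.06 under CXD101 (adjusted p = 0.000135). C1qbp, a mitochondrial protein named for binding C1q, fell there by 1.52 ± 0.09 and 1.03 ± 0.09. C2, which was looked at after the values were seen, did not exceed 0.0461 FPKM in any library.

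Regulators and alternative pathway genes moved in both directions. Cfp encodes properdin, which stabilises the alternative convertase. It was at 421 and 419 FPKM in vehicle M-MDSCs and at 135 in both MS-275 libraries. The fall of Cfp from vehicle in these cells was 1.63 ± 0.05 for MS-275 and 0.74 ± 0.05 for CXD101. Cfb (factor B) also fell in all 4 comparisons with vehicle. Clu (clusterin) rose in all 4, by 2.31 ± 0.09 in M-MDSCs under MS-275, and Cd55, a convertase inhibitor, rose in PMN-MDSCs by 2.39 ± 0.10 and 2.33 ± 0.10. Of 10 complement and C1q receptor genes tested in M-MDSCs, 3 rose and 2 fell under MS-275 (all genes 10.1% and 7.32%). Under CXD101, 1 rose and 2 fell (5.14% and 3.0%). In PMN-MDSCs, 2 rose and 2 fell under MS-275 (14.6% and 14.2%), and 1 rose and 2 fell under CXD101 (11.9% and 9.54%). C3ar1 and Itgax (CD11c) fell and C5ar2 rose in all 4 comparisons.

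Counts over the lists that follow are set beside the share of all genes called in the same direction. In M-MDSCs these shares were 7.32% lower and 10.1% higher under MS-275, and 3.0% lower and 5.14% higher under CXD101. The shares in PMN-MDSCs were 14.2% lower and 14.6% higher under MS-275, and 9.54% lower and 11.9% higher under CXD101. Some listed genes reached 1 FPKM with 1 treatment only. With vehicle only, these were Abca1, Fcna and Maf in M-MDSCs and Abca1, Ccl12, Cd209a and Cx3cr1 in PMN-MDSCs. With an inhibitor only, they were Cacnb3, Pdgfrb and Tyro3 in M-MDSCs and Ccr3 and Lyve1 in PMN-MDSCs. The list counts include them and are descriptions.

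Genes for the uptake of dying cells and for scavenger receptors were called lower more often than higher. Of 16 tested in PMN-MDSCs, 12 fell and 1 rose under MS-275 (all genes 14.2% and 14.6%), and 11 fell and 0 rose under CXD101 (9.54% and 11.9%). The median differences were −1.52 and −1.21, beside −0.03 for all genes in both. In M-MDSCs, 6 of 17 fell and 2 rose under MS-275 (7.32% and 10.1%), and 5 fell and 2 rose under CXD101 (3.0% and 5.14%), with medians of −0.50 and −0.40 beside −0.06 and −0.02 for all genes. Mertk is a receptor tyrosine kinase that mediates uptake of apoptotic cells. It was at 5.31 and 5.24 FPKM in vehicle M-MDSCs and at 1.18 and 1.04 with MS-275, and fell by 1.57 ± 0.11. In PMN-MDSCs it fell by 2.72 ± 0.15 and 2.13 ± 0.15. Clec10a and Mgl2, closely related galactose-type lectins whose reads may be hard to separate, fell under MS-275 in both cell types. Marco rose under CXD101 in M-MDSCs by 1.0 ± 0.16 and fell there under MS-275 by 0.84 ± 0.16. Olr1, a receptor for oxidised lipoprotein, rose under MS-275 in both, by 1.94 ± 0.12 and 0.62 ± 0.09.

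Genes of TREM2 signaling and of lipid-associated macrophages fell in part. In PMN-MDSCs, 11 of 26 fell and 2 rose under MS-275 (all genes 14.2% and 14.6%), and 9 fell and 0 rose under CXD101 (9.54% and 11.9%), with medians of −0.31 and −0.52 beside −0.03 for all genes in both. In M-MDSCs, 7 of 25 fell and 2 rose under MS-275 (7.32% and 10.1%), and 3 fell and 2 rose under CXD101 (3.0% and 5.14%), with medians of −0.33 and −0.18 beside −0.06 and −0.02. Fabp4, a fatty acid carrier, was at 31.7 and 30.8 FPKM in vehicle M-MDSCs. It was at 7.46 and 7.44 there with MS-275, a fall of 1.93 ± 0.09, and at 21.9 and 25.8 with CXD101. Like Mrc1, it was lower with MS-275 than with CXD101 in both cell types. The differences were −1.55 ± 0.09 in M-MDSCs and −2.84 ± 0.27 (adjusted p = 0.00852) in PMN-MDSCs. Mmp12, macrophage elastase, fell in all 4 comparisons with vehicle, and Lpl, lipoprotein lipase, fell in PMN-MDSCs by 1.83 ± 0.07 and 1.69 ± 0.07. Tyrobp, the adaptor of TREM2, and Spi1, which encodes PU.1, were looked at for their role after the values were seen. Tyrobp was between 976 and 1137 FPKM in all M-MDSC libraries and between 2870 and 3339 in all PMN-MDSC libraries. Of 7 osteopontin receptor genes tested in M-MDSCs, 1 rose and 1 fell under MS-275 (10.1% and 7.32%). Under CXD101, 0 rose and 0 fell there (5.14% and 3.0%). In PMN-MDSCs, 2 of 7 rose and 0 fell under each inhibitor (14.6% and 14.2% with MS-275, 11.9% and 9.54% with CXD101). Itgb5 rose under MS-275 in M-MDSCs and under both inhibitors in PMN-MDSCs. Itgb3 rose in PMN-MDSCs, and Itgb1 fell in M-MDSCs under MS-275.

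Several transcription factors of macrophages changed as well. Of 17 tested, 6 fell and 2 rose under MS-275 in M-MDSCs (all genes 7.32% and 10.1%), and 3 fell and 2 rose under CXD101 (3.0% and 5.14%). In PMN-MDSCs 8 fell and 1 rose under MS-275 (14.2% and 14.6%), and 5 fell and 2 rose under CXD101 (9.54% and 11.9%). Klf4 is a zinc finger factor of monocytes and macrophages. Its fall from vehicle in M-MDSCs was 1.60 ± 0.08 for MS-275 and 0.60 ± 0.08 for CXD101. Klf4 fell in all 4 comparisons with vehicle, Cebpa rose in all 4, and Maf fell in both comparisons of PMN-MDSCs. Mitf fell in PMN-MDSCs by 1.09 ± 0.10 (adjusted p = 0.000114) and 1.11 ± 0.10 (adjusted p = 0.000170), from 12.1 and 11.7 FPKM with vehicle. Spi1 was between 251 and 322 FPKM in M-MDSCs and between 362 and 433 in PMN-MDSCs.

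Of the other macrophage genes, 6 of 16 rose and 3 fell under MS-275 in M-MDSCs (all genes 10.1% and 7.32%) and 6 rose and 2 fell under CXD101 (5.14% and 3.0%). In PMN-MDSCs, 3 of 19 rose under each inhibitor, a share near that of all genes (14.6% and 11.9%), with 5 falling under MS-275 and 4 under CXD101 (14.2% and 9.54%). Fcgr4 and Vcam1 rose in all 4 comparisons. Csf1r, the receptor that sustains macrophages, fell in PMN-MDSCs by 1.28 ± 0.07 (adjusted p = 1.11e-05) and 1.07 ± 0.07 (adjusted p = 3.89e-05), from 160 and 145 FPKM. Arg1 (arginase 1) fell under MS-275 by 1.81 ± 0.23 in M-MDSCs and by 1.66 ± 0.20 in PMN-MDSCs. The summed level of this list stayed between 966 and 1039 FPKM in M-MDSCs and between 1162 and 1278 in PMN-MDSCs.

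**Figure D5:**
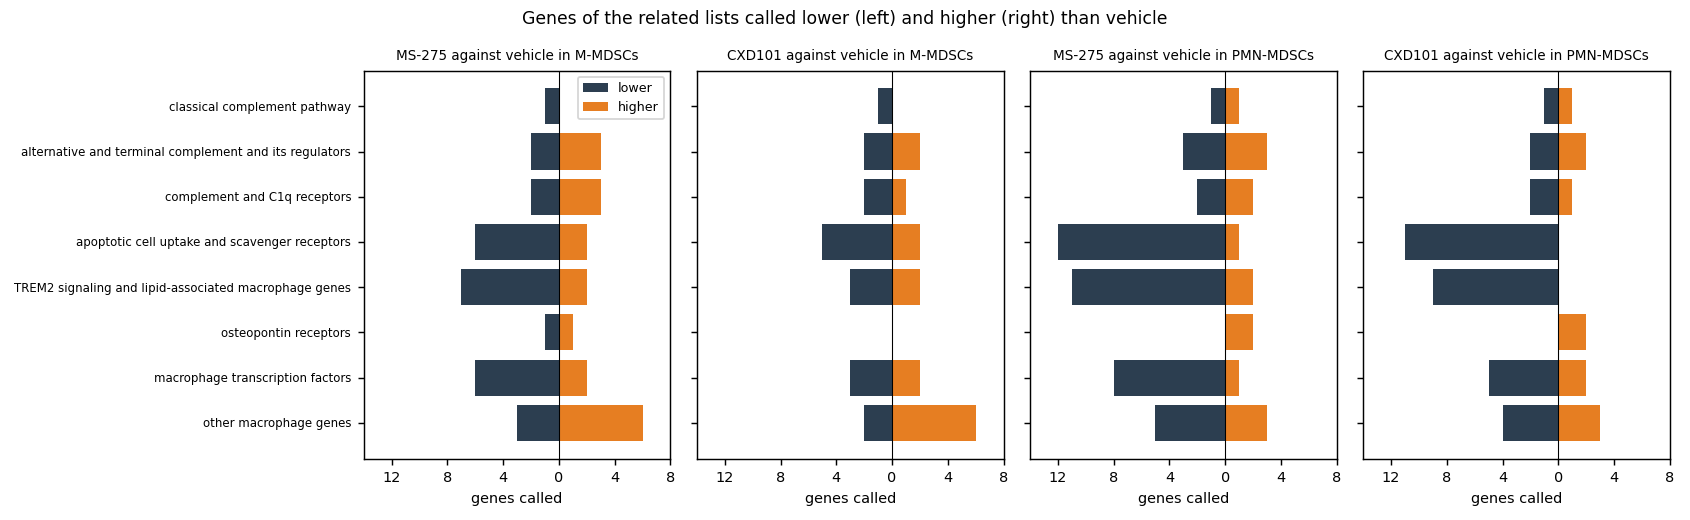
Number of genes (x axis) of 8 related gene lists (y axis) called lower (left of 0) and higher (right of 0) than vehicle in the 4 comparisons. The longest bars are those of uptake and scavenger receptors in PMN-MDSCs, with 12 and 11 genes lower.

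In bulk libraries, fewer cells of a type and less RNA per cell cannot be told apart, so markers of other cells are given beside these results. Of the 7 Kupffer cell markers, Clec4f and Timd4 were at 0 in every library, and Cd5l, Folr2 and Vsig4 did not exceed 0.213 FPKM. The summed list, from 4.23 to 25.2 FPKM, was mainly Marco (1.67 to 25.0) and, in PMN-MDSCs of the MS-275 group, Clec1b (2.56 and 3.0). Alb did not exceed 0.0528 FPKM and Ttr was at 0 in every library, and of the 12 hepatocyte and liver tumor markers 2 to 4 were above 0, mainly Trf. Of 4 dendritic cell markers tested in M-MDSCs, 3 fell and 1 rose under MS-275 (all genes 7.32% and 10.1%) and 3 fell and 0 rose under CXD101 (3.0% and 5.14%). Their sum was 16.1 to 21.2 FPKM with vehicle and 4.17 to 9.83 with treatment in M-MDSCs. In PMN-MDSCs it was 32.9 to 40.0 with vehicle and 13.9 to 16.3 with treatment, where 5 of 6 fell and 1 rose under MS-275 (14.2% and 14.6%) and 4 fell and 0 rose under CXD101 (9.54% and 11.9%). The 7 erythroid markers summed to at most 1.0 FPKM. Lymphocyte and NK cell markers summed to 4.41 to 7.30 FPKM with vehicle and 9.61 to 14.4 with treatment. Endothelial and fibroblast markers, mainly Pecam1, which myeloid cells also express, summed to 17.7 to 33.7 and 34.4 to 64.1 FPKM.

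Markers of granulocytes and monocytes are given in the same way. In PMN-MDSCs, 10 of 13 neutrophil markers rose under each inhibitor (all genes 14.6% with MS-275 and 11.9% with CXD101), and 1 and 0 fell (14.2% and 9.54%). There S100a8 and S100a9 took 10.2% and 13.7% of the summed FPKM with vehicle and 27.3% to 30.9% with treatment. With both genes left out of the library sum, C1qb in PMN-MDSCs was at −4.43 against vehicle with MS-275 and at −2.75 with CXD101 (log2), Mrc1 at −3.79 and −1.18, Gpnmb at −2.74 and −2.26, and Apoe at 1.58 and 0.49. In M-MDSCs the S100a8 and S100a9 share was 1.95% and 1.78% with vehicle and 3.58% to 4.28% with treatment. In these cells 6 of 13 neutrophil markers rose under each inhibitor (10.1% and 5.14%). Of the 13, 3 fell under MS-275 and 1 under CXD101 (7.32% and 3.0%). Of 6 eosinophil markers tested there, 4 rose under MS-275 and 5 under CXD101 (10.1% and 5.14%), and 0 fell (7.32% and 3.0%). Of 7 in PMN-MDSCs, 1 rose and 1 fell under each inhibitor. That is near the shares of all genes, 14.6% and 14.2% with MS-275 and 11.9% and 9.54% with CXD101. Prg2 and Epx, which encode eosinophil granule proteins, rose in M-MDSCs by 3.72 ± 0.18 and 2.75 ± 0.20 under MS-275 and by 3.40 ± 0.18 and 2.32 ± 0.20 under CXD101. Of 12 monocyte markers tested in M-MDSCs, 6 rose and 1 fell under MS-275 (10.1% and 7.32%) and 5 rose and 1 fell under CXD101 (5.14% and 3.0%). Of 13 in PMN-MDSCs 4 rose and 3 fell under each, beside 14.6% and 14.2% of all genes with MS-275 and 11.9% and 9.54% with CXD101. The monocyte marker sum was 3558 and 3766 FPKM in vehicle M-MDSCs and 6700 to 7412 with treatment. In PMN-MDSCs it was 3213 and 3206 FPKM with vehicle and 8871 to 9160 with treatment. The part of other cells in the C1q and marker gene values was not tested.

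The genes whose pattern over the libraries was most like that of C1q were found by Pearson's r of log2(FPKM + 1) with the mean of the 3 standardised chains. Over the 6 M-MDSC libraries these were Itgb1 (r = 0.999), Tifa, Tma16, Galnt3, Isyna1, Ugdh, Nsa2 and Gspt1, the last with r = 0.997, of 8590 genes. Over all 12 libraries they were Irf5 (r = 0.978), Ssfa2, Crybg3, Fam20c, Nras, Anxa5, Dhps and Naaa (r = 0.966), of 9284 genes. With libraries that share groups, such values describe the order of 3 or 6 groups rather than independent points. Within the set, the same r over the 12 libraries was 0.902 for Cd68, 0.826 for Trem2, 0.808 for Spp1 and 0.753 for Gpnmb. It was 0.710 for Mrc1, 0.0069 for Adgre1 and −0.279 for Apoe. Over the 6 M-MDSC libraries r was 0.98 for Trem2, 0.90 for Cd68, 0.89 for Spp1 and 0.80 for Mrc1. There it was negative for Gpnmb (−0.92), Adgre1 (−0.90) and Apoe (−0.90).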

How the data were processed

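RNA-seq was performed on 12 libraries. Per the submitters' processing notes, reads were handled with TopHat2 2.1.1, Bowtie2 2.2.8, SAMtools 0.1.18 and Cuffdiff 2.2.1 on mm10, and the authors deposited FPKM per gene symbol. The annotation and strand setting are not given in the sources used here. The FPKM values were tested as log2(FPKM + 1) with limma 3.58.1 in R 4.3.3 (moderated by intensity trend), among genes with at least 1 FPKM in at least 2 libraries of the fit. Each cell type was fitted on its 6 libraries, and comparisons across cell types on all 12. Benjamini-Hochberg adjustment ran over all genes tested, 11078 in M-MDSCs, 11184 in PMN-MDSCs and 11662 in both. Calls needed a fold change above 1.5 with an adjusted p-value under 0.05. Tables and figures used Python 3.11.15, pandas 2.3.3, numpy 2.4.6 and matplotlib 3.10.9. Members and gene lists were chosen with earlier results of these data known, so differences between treatments in M-MDSCs are given without p-values. Named besides the 10 genes were, per list and comparison, up to 4 genes called in each direction by size of change. 1 gene of these is not reported here. The files hold no read counts, so depth is an estimate. The fitting code was tested on simulated data.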

Additional observations from a re-analysis of the deposited data

Results flagged for a closer look

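For several genes of the set the difference from vehicle was not the same in PMN-MDSCs as in M-MDSCs, as estimated by an interaction term over all 12 libraries with limma. Since the genes were chosen with M-MDSC results known, these values are a description. The difference from vehicle under MS-275 in PMN-MDSCs minus that in M-MDSCs was −3.00 (log2) for Gpnmb, −1.27 for C1qc, −1.25 for Trem2, −1.25 for Mrc1 and 1.07 for Apoe. Under CXD101 it was −2.37 for Gpnmb, −0.96 for Mrc1 and −0.84 for Trem2. The terms for the inhibitors share the vehicle libraries of both cell types. Gpnmb was the one gene of the set that was higher than vehicle under both inhibitors in M-MDSCs and called lower under both in PMN-MDSCs. In M-MDSCs the rise was below the fold limit, at 0.32 ± 0.06 under MS-275 and 0.14 ± 0.06 under CXD101. Its vehicle values in PMN-MDSCs were 568 and 452 FPKM.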

How the results depend on the processing

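Across the alternatives run (pseudocount, filters, scalings, fold limit, variance prior, libraries fitted, replicate block, libraries left out) none of the differences past the limits changed sign. Counts against vehicle given here include C1qa, which passed the filter only through the vehicle groups. Of the counts of the 10 genes past the limits, 102 of 106 stayed within 1.5 times the main count, and 78 of 84 did with 1 library left out. Between MS-275 and CXD101 in PMN-MDSCs the count of 4 became 1 without the filter and 2 without the intensity trend, and ranged from 1 to 4 with 1 library left out. Over all genes, 52 higher and 38 lower calls there became 3 and 1 without the filter, 38 and 25 with the replicate block and 23 and 12 without the trend. Between the cell types with vehicle, the count of 7 became 3 at a fold limit of 2 (5 to 7 with 1 library left out). With CXD101 it ranged from 3 to 5, with 5 called without the first CXD101 library of PMN-MDSCs. For the CXD101 response between cell types, the count of 3 became 1 at that limit and ranged from 3 to 5, again 5 without that library. With 1 library left out, counts against vehicle were 5 to 7 (MS-275) and 3 to 4 (CXD101) in M-MDSCs, and 8 to 9 and 7 to 9 in PMN-MDSCs. In M-MDSCs, Apoe was past the limits under both inhibitors at a pseudocount of 0.1. Under MS-275 it was also past them when S100a8 and S100a9 were left out of the sum (0.65). That scaling changed calls over all genes for the MS-275 response between cell types from 1009 higher and 1106 lower to 738 and 1537. A filter of at least 5 FPKM removed C1qa. The causes were not tested.

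Libraries with the same replicate number did not deviate together (correlations from −0.126 to 0.179), so the number was not used for pairing. With it as a replicate block, counts of the 10 genes against vehicle were 6 and 4 in M-MDSCs and 9 and 8 in PMN-MDSCs, as without it. These counts include C1qa, whose direction against vehicle was fixed by the filter. Over all genes under MS-275, calls with the block were 1119 higher and 814 lower of 11078 in M-MDSCs. In PMN-MDSCs they were 1626 and 1588 of 11184. Between the inhibitors in PMN-MDSCs, C1qb was called with the block (adjusted p = 0.0334) and Trem2 was not (adjusted p = 0.0574).

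With an estimated 6980000 to 10550000 reads per library, C1q values of the MS-275 groups rest on few reads. At a pseudocount of 0.1, the C1qb difference between MS-275 and vehicle became −4.37 (M-MDSCs) and −5.34 (PMN-MDSCs).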
